A study of Mus musculus with 32 samples.

Results

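The early response of YUMM3.3 cells to Activin-A and IFN-γ given together was read from 8 wells: 4 that received both factors for 4 hrs and 4 that received neither and were collected at the same time. The YUMM3.3 line was derived from a melanoma of the mouse. The 8 wells were chosen by their treatment and time labels among 32 wells of this line, since at 4 hrs and at 12 hrs 4 wells each were left untreated or were given Activin-A, IFN-γ or both. The labels give doses of 20 ng/ml for IFN-γ and 40 ng/ml for Activin-A, alone and together, whereas some of the legends of the study give a higher dose of Activin-A. The line, the plate format and the medium, with fetal bovine serum, GlutaMAX and gentamicin, were shared by all groups. A legend of the study names the comparator a water control, while the labels of these wells read NT and name no vehicle. Messenger RNA was measured by BRB-seq, in which each well's cDNA carries a barcode, wells are pooled and reads are taken from transcript 3′ ends. All wells came from the same cell line, so that p-values measure the spread between wells and not between tumors or animals.

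IFN-γ binds a receptor of the chains Ifngr1 and Ifngr2, whose kinases Jak1 and Jak2 phosphorylate transcription factors of the STAT family. STAT dimers bind IFN-γ-activated sequences (GAS) in target promoters, and the factors made in this first step, such as Irf1, act on IFN-stimulated response elements (ISRE) of further genes for antigen presentation and cell-autonomous defense. Activin-A binds type II and type I receptors that phosphorylate Smad2 and Smad3, which enter the nucleus with Smad4 and induce feedback inhibitors, matricellular proteins and regulators of the cytoskeleton.

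Totals of the 8 wells ranged from 912571 to 1190671 counts, with means of 1018000 in untreated wells and 1092000 with both factors (two-sided exact permutation p = 0.286, n = 4 per group). The share of counts on the mitochondrial genome was 1.32% to 1.43% in untreated wells and 1.18% to 1.42% with both factors. Of the melanocyte lineage markers, 10 were tested, among them Mitf, Sox10, Pmel, Mlana, Dct, Tyr and Tyrp1, 0 were called in edgeR or DESeq2 and 0 had an unadjusted p under 0.05 in edgeR. The 12 listed markers in the table had a summed level of 1330 to 1493 CPM (counts scaled to a TMM-adjusted well total of 1000000) in untreated wells. With both factors the sum was 1449 to 1494 CPM. A single marker reached 1577 counts in a well of 4 hrs, so that the sum may rest mostly on that gene. The tested markers also include Axl, S100a1 and S100b. Kit and Ngfr were not in the table, and Ednrb and Pax3 were too low to test. Of 12 leukocyte markers 4 were in the table with a summed level of at most 14.2 CPM in the 8 wells, of 6 keratinocyte markers 1 was, with at most 9.79 CPM, and 0 of 7 endothelial markers were. At 4 hrs replicate 1 of Activin-A alone stood apart from its group: its pairwise chi-square per gene was 2.45 to 2.89, against at most 1.54 for any other pair of wells in a group at 4 hrs. That well is in neither group compared here, but it enters the shared estimate of the spread.

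Both factors together changed 666 of 9137 genes tested within 4 hrs, which is 7.29%, and 464 of these (5.08%) were higher and 202 (2.21%) lower than in untreated cells. Here and below a gene is called higher or lower (a differentially expressed gene, DEG) at an adjusted p under 0.05 in edgeR's quasi-likelihood test, fitted over the 16 wells of 4 hrs, and a log2 fold change (log2FC) is given with its standard error. Among the called genes the higher ones moved further than the lower ones. Of the 464, 203 rose at least 2-fold, 85 at least 4-fold and 20 at least 16-fold, with a median log2FC of 0.87, whereas of the 202, 23 fell at least 2-fold and 0 at least 4-fold, with a median log2FC of -0.54. Of those at 16-fold or more, Apol6, Gm4841, Tgtp1, Tgtp2, Gm12185, Gm4951, Gbp6, Il18bp, Il15ra, Zbp1 and Cd274 had under 10 counts in every well without IFN-γ. They passed the filter on low counts through the wells with it, so that they had to be higher. The sizes of higher and lower genes were not compared without such genes. The median over all genes tested was -0.01. In untreated wells the 464 genes held 4.44% to 4.47% of all counts, and with both factors 8.0% to 8.2%. The wells of both groups did not overlap for 1087 genes (11.9%), among them 587 of the 666 DEGs (6.42% of genes tested). In bulk wells a higher level in every cell and a larger number of cells that carry the transcript cannot be told apart. Without replicate 1 of Activin-A alone 749 genes were called, and with DESeq2's Wald test 494.

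**Figure D1:**
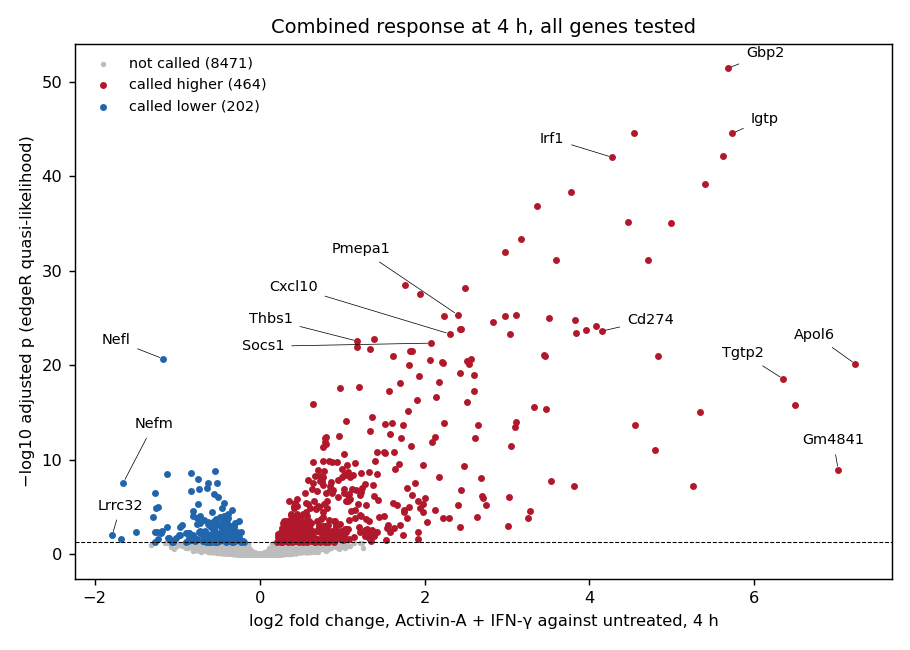
Log2 fold change of both factors against untreated cells at 4 hrs (x axis) and −log10 of the adjusted p from edgeR (y axis), 1 point per gene tested, with 4 wells in each group. The 464 genes called higher reach a log2FC of 7.22 (Apol6, fitted from 1 untreated count), and the 202 called lower reach down to -1.79.

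The share of genes called and the smallest change called varied with the level. Among genes with a mean of 10 to 30 CPM in the 8 wells 4.80% were called and the smallest called change was 0.64 on the log2 scale. Among genes above 300 CPM 14.1% were called, and changes down to 0.19 passed the test.

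The components of the IFN-γ pathway did not move alike. Of 10 receptor, JAK and STAT genes tested, 3 rose and 1 fell, against 5.08% and 2.21% of all genes tested called higher and lower, with a median log2FC of 0.23. Stat2, which joins Irf9 in the complex that binds ISRE, rose by a log2FC of 2.51 ± 0.19, and Stat3, a transducer of the IL-6 family, by 2.06 ± 0.12. Ifngr2, the signaling chain of the receptor, fell from 146 ± 6.54 to 107 ± 16.6 CPM (SD, n = 4 per group, log2FC -0.45 ± 0.11, edgeR adjusted p = 0.00394), and its wells did not overlap. The ligand-binding chain Ifngr1 (log2FC -0.23, adjusted p = 0.505), Jak1 (-0.02, 0.978) and Jak2 (0.44, 0.132) did not pass the test in edgeR.

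Among IRF transcription factors 4 of 7 tested rose and 0 fell (5.08% and 2.21% of all genes tested), with a median log2FC of 0.80. Irf1, an early transcription factor of the IFN response, was at 41.3, 43.7, 42.4 and 40.7 CPM in untreated wells and at 746, 861, 855 and 793 CPM with both factors. The untreated wells were close to each other and far below every treated well (log2FC 4.28 ± 0.09, edgeR adjusted p = 9.69e-43). Irf7, which amplifies IFN responses, rose by a log2FC of 1.84 ± 0.18, Irf9 by 1.51 ± 0.16 and Irf2, a competitor of Irf1 at the same elements, by 0.72 ± 0.16. Irf3, Irf5 and Irf8 were tested and did not pass.

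The window before the start of Irf1 is shown because it holds a GAS. It is the first of 2 starts that RefSeq lists for the gene (GRCm38.p6, chr11:53769764-53770013, + strand), it runs 5′ to 3′ up to the base before the start, and capitals mark the match to TTCNNNGAA, at bases 82 to 90 before the start.
Irf1: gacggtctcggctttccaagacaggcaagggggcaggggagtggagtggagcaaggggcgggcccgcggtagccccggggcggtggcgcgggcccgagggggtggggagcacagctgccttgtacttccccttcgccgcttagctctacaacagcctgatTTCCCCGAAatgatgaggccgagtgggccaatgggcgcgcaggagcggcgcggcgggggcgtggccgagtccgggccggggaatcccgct

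Of 11 inhibitors of cytokine signaling tested, 3 rose and 1 fell (median log2FC 0.14), against 5.08% and 2.21% of all genes tested. Socs1, which blocks JAK kinases, stood at 44.0, 41.8, 39.2 and 43.7 CPM in untreated wells and at 180.3, 177, 171 and 188 CPM with both factors. The groups were far apart, with a log2FC of 2.08 ± 0.11 (edgeR adjusted p = 4.38e-23). Socs3, an inhibitor of the same family, rose by a log2FC of 1.61 ± 0.14 and Usp18, an inhibitor of type I IFN receptor signaling, by 1.22 ± 0.18. Socs2, which restrains growth hormone signaling, fell from 26.2 ± 1.83 to 14.3 ± 2.01 CPM (SD, n = 4 per group), a log2FC of -0.85 ± 0.22 (edgeR adjusted p = 0.00592).

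The guanylate-binding proteins (GBP) and immunity-related GTPases (IRG), which attack the vacuoles of intracellular pathogens, were the list with the largest median log2FC of the 30 examined: 12 were tested and called higher, with a median of 5.19 and a range of 2.64 to 6.49, against 5.08% of all genes tested called higher. Of these, Gbp4, Gbp6, Tgtp1 and Tgtp2 had under 10 counts in every well without IFN-γ and passed the filter on low counts through the wells with it, so that they had to differ. The other 8 had a median log2FC of 5.19 and a range of 4.47 to 5.73. Among them Gbp7 and Irgm2 were at most 14.9 and 11.5 CPM in any 4 hrs well without IFN-γ, and may also have passed through the wells with it. Another 4 of the 20 listed were in the table with counts too low to test. The summed level of the list was 177 to 213 CPM in untreated wells and 7450 to 7659 CPM with both factors. Gbp2 was at 64.2, 64.6, 52.2 and 58.5 CPM in untreated wells and at 3115, 3072, 3027 and 3098 CPM in the treated wells. The treated wells were close to each other, and the log2FC of 5.68 ± 0.08 had the smallest adjusted p of all genes (3.69e-52, edgeR). Igtp (Irgm3) stood at 21.98, 16.2, 15.2 and 25.8 CPM without treatment and at 1118, 1034, 1035 and 1058 CPM with it (log2FC 5.73 ± 0.11). Iigp1 rose by a log2FC of 5.62 ± 0.12 and Ifi47 by 5.40 ± 0.13. Members of these families resemble each other closely, and how reads that fit several genes were counted is not given in the sources used here, so that reads shared between members cannot be told apart.

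Several of the largest changes began from nearly no counts, and their size is known only as a ratio with a wide counting interval. Apol6, an apolipoprotein L family member, had 1 count in the 4 untreated wells together and 232 with both factors, a ratio of 222 at equal depth (exact 95% interval 39.5 to 8818). In the treated wells it stood at 49.0, 52.3, 59.6 and 54.8 CPM, and its single untreated count was in replicate 1. Tgtp1 and Tgtp2, near-identical IRG genes, had ratios of 133 (23.5 to 5298) and 101 (27.6 to 840.2). Gm12185 and Gm4951 had ratios of 47.0 (15.8 to 230.3) and 56.5 (9.76 to 2270). Gm4841 had 0 counts in the untreated wells and 66 with both factors, which makes it at least 5.31-fold higher when 3 counts per well are set as the floor. These intervals cover counting error only.

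The windows before the starts of Gbp2 (chr3:142620413-142620662, + strand), Igtp (chr11:58199306-58199555, + strand) and Socs1 (chr16:10785537-10785786, - strand) are shown because each holds an ISRE, and they are from RefSeq on GRCm38.p6, 5′ to 3′ up to the base before the start, with each match to GAAA, any pair of bases and GAAA on either strand in capitals. In Socs1 a pair of matches overlap and share 4 bases. The match of Gbp2 lies at bases 50 to 59, that of Igtp at 25 to 34, and the nearer of Socs1 at 68 to 77 before the start.
Gbp2: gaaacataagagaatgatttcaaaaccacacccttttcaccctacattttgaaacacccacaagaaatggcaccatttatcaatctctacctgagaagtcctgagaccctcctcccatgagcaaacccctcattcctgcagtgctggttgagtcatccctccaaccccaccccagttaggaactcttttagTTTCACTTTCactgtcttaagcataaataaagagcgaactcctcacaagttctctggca
Igtp: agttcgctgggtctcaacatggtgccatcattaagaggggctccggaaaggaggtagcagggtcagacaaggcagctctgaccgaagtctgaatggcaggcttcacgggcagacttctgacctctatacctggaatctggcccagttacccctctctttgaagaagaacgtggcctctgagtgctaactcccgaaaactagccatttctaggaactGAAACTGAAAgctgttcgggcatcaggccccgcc
Socs1: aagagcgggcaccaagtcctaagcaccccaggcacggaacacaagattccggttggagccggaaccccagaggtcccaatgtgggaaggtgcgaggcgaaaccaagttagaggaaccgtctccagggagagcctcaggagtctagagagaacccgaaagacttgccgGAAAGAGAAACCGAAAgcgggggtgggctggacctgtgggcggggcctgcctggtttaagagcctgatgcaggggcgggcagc

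Over all genes tested with an entry in that table (7333 of 9137), an ISRE was found in the 250 bases before a start in 15.1% of 365 genes called higher, in 1.91% of 157 called lower and in 3.23% of all. A GAS (TTCNNNGAA) was found in 12.6%, 6.37% and 6.90%. The Smad box CAGACA was found in 16.4%, 15.3% and 15.3%, and the Smad palindrome GTCTAGAC in 1 of the 365, 0 of the 157 and 19 of the 7333. The AP-1 element TGANTCA was present in 9.86% of the higher, 11.5% of the lower and 5.26% of all genes. Both strands were searched, a gene counted when any of its listed starts held the motif, and the genes had 1.4, 1.4 and 1.3 starts on average. Among the GTPases 8 of 9 with an entry held an ISRE and 5 a GAS. Among MHC class I genes 3 of 17 held an ISRE (B2m, H2-T22 and H2-T23) and 2 a GAS (H2-M3 and Psmb8). A match of letters is a description of the window and not of binding.

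Genes of MHC class I and of the pathway that loads it with peptides rose together: 18 of 20 tested were higher and 0 lower, against 5.08% and 2.21% of all genes tested, with a median log2FC of 2.18. Without H2-M3, H2-Q4 and Tapbpl, which were under 10 counts in every well without IFN-γ, 15 of 17 were higher (median log2FC 1.82). Psmb9, a catalytic subunit of the immunoproteasome, was at 14.1, 6.65, 6.53 and 7.94 CPM in untreated wells and at 118, 119, 129.6 and 145 CPM with both factors (log2FC 3.82 ± 0.18). Its partner Psmb8 rose by a log2FC of 3.52 ± 0.16, and Tap1, a chain of the transporter that moves peptides into the endoplasmic reticulum, by 3.60 ± 0.13, from 23.2 ± 2.33 to 281 ± 31.7 CPM (SD, n = 4 per group). Nlrc5, the transactivator of class I genes, was at 6.16, 6.65, 6.53 and 6.95 CPM and then at 84.4, 95.2, 109 and 90.8 CPM (log2FC 3.83 ± 0.19). It was at most 7.9 CPM in any 4 hrs well without IFN-γ. Nlrc5 therefore also passed the filter on low counts through the wells with it and had to differ, but is still counted in the 15 of 17. Psmb9 was at most 14.1 CPM in the wells without IFN-γ and may have passed in the same way. The class I heavy chains H2-K1 (log2FC 0.77) and H2-D1 (0.65) and the light chain B2m (0.65) rose too, and the non-classical H2-T23 rose by 2.56 ± 0.15. The chaperones Pdia3 and Calr, which serve many glycoproteins, had a log2FC of 0.02 and 0.02 and did not pass the test. Of 5 MHC class II genes tested 0 were called in edgeR or DESeq2 and 0 had an unadjusted p under 0.05 in edgeR (median log2FC 0.00, with 7.29% of all genes tested called), and their transactivator Ciita was too low to test.

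Antiviral effectors and sensors of nucleic acids followed the same direction, with 32 of 38 tested higher, 0 lower (5.08% and 2.21% of all genes tested) and a median log2FC of 1.52. Without Oas1b, Oas2, Oas3 and Zbp1, which passed the filter only through wells with IFN-γ, 28 of 34 were higher (median log2FC 1.28). These 28 still include Trim21, which was at most 7.94 CPM in any 4 hrs well without IFN-γ. Trim21 therefore also passed through the wells with it and had to differ. Zbp1, a sensor of Z-form nucleic acid, was at 3.52, 5.70, 8.71 and 5.95 CPM in untreated wells and at 110.5, 97.8, 88.9 and 105 CPM with both factors (log2FC 4.08 ± 0.20). Trim21, a cytosolic antibody receptor, rose by a log2FC of 3.48 ± 0.27, and Parp14 and Parp9, of the ADP-ribosyltransferase family, by 3.46 ± 0.20 and 3.11 ± 0.14. Sting1, listed as Tmem173, is the adaptor that relays cytosolic DNA to IFN production. Tmem173 stood at 58.0, 70.3, 69.6 and 52.6 CPM in untreated wells and at 117, 127, 139 and 122 CPM with both factors, with no overlap and a log2FC of 1.02 ± 0.12 (edgeR adjusted p = 3.51e-09). The DNA sensor Cgas upstream of it had 14.4 ± 3.13 and 19.4 ± 3.03 CPM (SD, n = 4 per group), its wells overlapped, and the log2FC of 0.41 ± 0.25 did not pass the test (edgeR adjusted p = 0.456). The other listed genes that did not pass were Ifit2, Oasl1, Rsad2, Ifitm2 and Trim25.

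**Figure D2:**
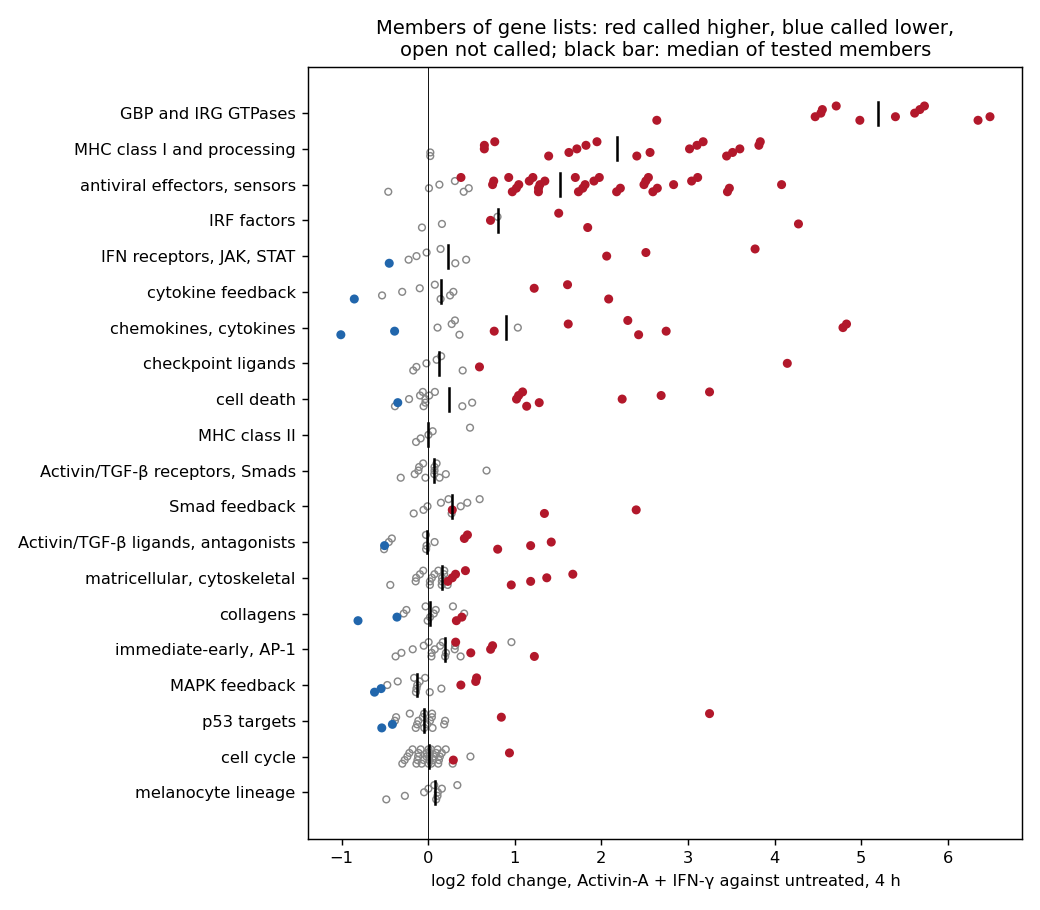
Log2 fold change of both factors against untreated cells at 4 hrs (x axis) for the tested members of 20 gene lists (rows). Points are genes, red called higher, blue called lower and open not called, and black bars are medians, with that of the GTPases at 5.19 and that of the MAPK feedback list at -0.13.

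Of 14 chemokine and cytokine genes tested 7 rose and 2 fell (median log2FC 0.90), against 5.08% and 2.21% of all genes tested. Without Il15, Il15ra and Il18bp, which passed the filter only through wells with IFN-γ, 4 of 11 rose (median log2FC 0.36). Il18bp, a decoy that binds IL-18, was at 1.76, 2.85, 0 and 3.97 CPM in untreated wells and at 61.5, 69.5, 65.3 and 64.7 CPM with both factors (log2FC 4.83 ± 0.28). Il15ra, which presents IL-15 on the cell surface, went from 3 counts to 100 over the 4 wells, a ratio of 31.9 (exact 95% interval 10.6 to 158), and Il15 itself rose by a log2FC of 2.75 ± 0.45. Cxcl10, a ligand of the chemokine receptor Cxcr3 on T cells, stood at 44.0, 42.8, 43.5 and 44.6 CPM and then at 225, 204, 219.5 and 216 CPM (log2FC 2.31 ± 0.12, edgeR adjusted p = 4.66e-24). Cxcl9, a ligand of the same receptor, was at 42.0 ± 4.30 and 53.8 ± 6.32 CPM (SD, n = 4 per group), and its log2FC of 0.36 ± 0.15 did not pass (edgeR adjusted p = 0.184), although the wells did not overlap.

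Ccl2, which attracts monocytes, stood at 80.0, 75.1, 74.0 and 82.4 CPM in untreated wells and at 250.2, 236, 225 and 244 CPM with both factors (log2FC 1.62 ± 0.09, edgeR adjusted p = 1.06e-21). Il33, an alarmin of the IL-1 family, was at 230.4, 215, 186 and 217 CPM without treatment and at 136, 169.9, 168 and 172 CPM with it. Every treated well was lower than every untreated well (log2FC -0.39 ± 0.09, edgeR adjusted p = 0.00151). Il11, of the IL-6 family, was the other cytokine that fell, with a log2FC of -1.01.

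Cd274 encodes PD-L1, the ligand that restrains T cells through PD-1. It was at 7.91, 4.75, 5.44 and 2.98 CPM in untreated wells and at 99.0, 99.5, 100.3 and 87.2 CPM with both factors, a log2FC of 4.15 ± 0.21. Cd274 was under 10 counts in every well without IFN-γ and passed the filter on low counts through the wells with it, so that it had to differ. Cd47, which signals to macrophages not to engulf the cell, rose from 158 ± 21.3 to 239 ± 6.45 CPM (SD, n = 4 per group, log2FC 0.59 ± 0.10, edgeR adjusted p = 4.41e-06). The other 6 of the 8 checkpoint genes tested did not pass, and without Cd274 the list had 1 of 7 higher (median log2FC 0.10), against 5.08% of all genes tested.

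Genes of cell death had 8 members higher and 1 lower of 20 tested (median log2FC 0.24), against 5.08% and 2.21% of all genes tested. Without Casp4 and Fas, which passed the filter only through wells with IFN-γ, 6 of 18 were higher (median log2FC 0.04). These 6 still include Bid, which was at most 9.71 CPM in any 4 hrs well without IFN-γ and also passed through the wells with it. The death receptor Fas was at 0, 0.951, 3.27 and 0 CPM and then at 10.4, 8.58, 11.3 and 10.8 CPM (log2FC 3.25 ± 0.63). Casp4, the sensor of cytosolic lipopolysaccharide that triggers pyroptosis, rose by a log2FC of 2.69 ± 0.34, Casp12 by 2.24 ± 0.19 and Bid, which links caspase-8 to mitochondria, by 1.28 ± 0.33. Of the mitochondrial regulators, Bak1 rose by a log2FC of 1.04 ± 0.17 (edgeR adjusted p = 2.39e-06), whereas Bax (-0.06), Bcl2l1 (-0.05) and Mcl1 (-0.03) did not pass.

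Of 13 receptors and Smads of the Activin and TGF-β pathway 0 passed in either direction in edgeR or DESeq2 (median log2FC 0.07), against 7.29% of all genes tested called in edgeR, and 1, Smad3, had an unadjusted p under 0.05 in edgeR. Acvr1b, the type I receptor of Activin-A, was at 25.4 ± 3.70 and 23.4 ± 6.66 CPM, Smad2 at 49.4 ± 4.66 and 52.1 ± 8.91 CPM and Smad3 at 54.6 ± 2.20 and 43.5 ± 7.23 CPM (untreated and both, SD, n = 4 per group).

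Feedback regulators of Smads had 3 of 12 tested higher and 0 lower (median log2FC 0.27), against 5.08% and 2.21% of all genes tested. Pmepa1, which sequesters receptor-regulated Smads, was at 49.2, 64.6, 47.9 and 60.5 CPM in untreated wells and at 278, 287, 296 and 314 CPM with both factors. No treated well came near an untreated one, and the log2FC was 2.40 ± 0.11 (edgeR adjusted p = 4.37e-26). Ldlrad4, a relative with the same role, rose from 5.75 ± 1.30 to 14.97 ± 5.08 CPM (SD, n = 4 per group, log2FC 1.34 ± 0.35, edgeR adjusted p = 0.00693). Without replicate 4 of both factors its log2FC was 1.10 with an edgeR adjusted p of 0.0830. At its untreated level Ldlrad4 passed the filter on low counts through wells given a factor, so that the filter favored its rise. It is still counted in the 3 of 12. Tgif1, a Smad corepressor, had a log2FC of 0.28, and its call was lost under DESeq2 and without replicate 1 or 2 of untreated cells or replicate 1, 3 or 4 of both factors, with a log2FC of 0.23 to 0.28. The inhibitory Smad7 (log2FC 0.45 ± 0.17, edgeR adjusted p = 0.117) and the corepressor Skil (0.59 ± 0.22, 0.108) did not pass, although neither gene's wells overlapped between the groups.

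Matricellular and cytoskeletal genes had 8 of 24 tested higher and 0 lower (median log2FC 0.16), against the same shares of all genes tested, 5.08% and 2.21%. Thbs1, thrombospondin-1, a glycoprotein that activates latent TGF-β, stood at 740.4, 665, 761 and 762 CPM in untreated wells and at 1673, 1673, 1660 and 1625 CPM with both factors (log2FC 1.18 ± 0.06, edgeR adjusted p = 2.66e-23). Ccn2, connective tissue growth factor, was at 73.9, 77.0, 65.3 and 95.3 CPM and then at 180.3, 196, 227 and 199.5 CPM (log2FC 1.37 ± 0.11). For both genes the lowest treated well lay above the highest untreated well. Ccn1, a relative of Ccn2, rose by a log2FC of 0.96 ± 0.09. Fibronectin (Fn1, log2FC -0.06), Sparc (0.02) and Tpm1 (0.04) did not pass.

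Ligands of the family and the proteins that bind them had 5 of 13 tested higher and 1 lower (median log2FC -0.02), against 5.08% and 2.21% of all genes tested. Without Inhbb, which was under 10 counts in every well without IFN-γ, 4 of 12 were higher. Fst, follistatin, which binds Activin-A and keeps it from its receptors, was at 712, 597, 668 and 709.5 CPM in untreated wells and at 1485, 1603, 1462 and 1533 CPM with both factors (log2FC 1.18 ± 0.06, edgeR adjusted p = 1.21e-22). Fstl1, a follistatin-like glycoprotein, rose by a log2FC of 0.80 ± 0.08. Inhba, the gene of the Activin-A subunit itself, was at 95.8, 103, 83.8 and 78.4 CPM and then at 115, 124, 133 and 109.6 CPM, a log2FC of 0.42 ± 0.11 (edgeR adjusted p = 0.00626). Inhbb, of the Activin-B subunit, rose by a log2FC of 1.42 ± 0.36, which was 1.19 with an adjusted p of 0.0551 (edgeR) without replicate 4 of both factors. Grem1, an antagonist of BMP, fell from 347 ± 16.6 to 244 ± 12.0 CPM (SD, n = 4 per group, log2FC -0.50 ± 0.08). Of 5 readouts of BMP signaling Id4 fell (log2FC -0.72 ± 0.15), whereas Id1 (-0.08) and Id3 (0.09) did not pass.

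Among all genes tested 5.08% were called higher and 2.21% lower. Mesenchymal regulators had 3 of 15 tested higher and 0 lower, namely Itgav (log2FC 0.39 ± 0.10) and Itgb1 (0.29 ± 0.06), integrin chains, and the transcription factor Prrx1 (0.38 ± 0.08). Snai1, Snai2, Twist1, Zeb1, Zeb2, Cdh2 and Vim did not pass. Of 13 collagens 2 rose and 2 fell. Col6a2 fell from 90.8 ± 7.82 to 51.7 ± 8.41 CPM (SD, n = 4 per group, log2FC -0.81 ± 0.15) and Col6a1, a chain of the same trimer, from 194 ± 16.2 to 150.3 ± 4.37 CPM (SD, n = 4 per group, log2FC -0.36 ± 0.09). The calls of Col5a1 (0.39) and Col8a1 (0.33) were lost under DESeq2. That of Col5a1 was also lost without replicate 1, 3 or 4 of untreated cells or 1 or 4 of both factors (0.24 to 0.42), and that of Col8a1 without replicate 1 or 4 of untreated cells or 2 or 3 of both factors (0.25 to 0.30).

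Of 34 genes of the cell cycle tested 2 rose and 0 fell (5.88% called, against 7.29% of all genes tested, median log2FC 0.01): Cdk6, a kinase of the G1 phase, from 93.8 ± 13.99 to 180.0 ± 10.6 CPM (log2FC 0.94 ± 0.10) and the replication helicase subunit Mcm6 from 315 ± 15.8 to 385 ± 7.18 CPM (0.29 ± 0.07, SD, n = 4 per group). Cdkn1a, the inhibitor p21, fell from 154 ± 13.8 to 115 ± 14.1 CPM (SD, n = 4 per group), a log2FC of -0.41 ± 0.11 (edgeR adjusted p = 0.00592). It missed the threshold without replicate 4 of untreated cells (-0.34, adjusted p = 0.0619) and without replicate 1 of both factors (-0.35, 0.0528, edgeR). Myc did not pass (0.20, adjusted p = 0.229, edgeR). Of 20 p53 targets, a list that shares Fas with that of cell death, 2 rose and 2 fell, and 1 of 19 rose without Fas, which passed the filter only through wells with IFN-γ (5.08% of all genes tested were higher and 2.21% lower). Beside Cdkn1a, Plk3 fell, with an edgeR adjusted p of 0.045. Its call was lost in 8 of the alternative settings, stricter thresholds included, with a log2FC of -0.59 to -0.37. Of 21 immediate-early genes 5 rose and 0 fell, among them Zfp36, which destabilizes cytokine mRNA (log2FC 1.23 ± 0.15), and Junb (0.72 ± 0.16).

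In the MAPK feedback list 3 of 15 rose and 2 fell, where 5.08% of all genes tested were called higher and 2.21% lower. Dusp6, a phosphatase of ERK, rose by a log2FC of 0.55 ± 0.08, and the ERK pathway inhibitors Spry4 and Spry2 had a log2FC of -0.62 and -0.54. In the list of amino-acid stress and antioxidant genes 3 of 18 rose and 2 fell. Txnip, an inhibitor of thioredoxin, rose by a log2FC of 1.22 ± 0.23, and Slc7a11, the cystine transporter, was at 29.4 ± 4.30 and 16.9 ± 5.89 CPM (SD, n = 4 per group, log2FC -0.81 ± 0.22, edgeR adjusted p = 0.00952). The call of Slc7a11 was lost under DESeq2 (adjusted p = 0.0594) and without replicate 2 of untreated cells or replicate 2 or 4 of both factors, where the log2FC was -0.72 to -0.69. Gclc was the other member that fell (log2FC -0.49 ± 0.13, edgeR adjusted p = 0.00954). Its call was lost in 3 of the alternative settings, a minimum fold change included, with a log2FC of -0.50 to -0.45. Hk2, the first enzyme of glycolysis, rose by a log2FC of 1.58 ± 0.14 as the only called gene of 13 in the list of hypoxia and glycolysis. In the NF-κB list 2 of 10 rose, Bcl3 (1.53 ± 0.47) and Nfkbiz (1.39 ± 0.38), atypical IκB proteins, and neither call held under DESeq2 (adjusted p = 0.119 and 0.0547), nor for Bcl3 (1.26 to 1.45) without replicate 2 or 4 of untreated cells or 3 or 4 of both factors, nor for Nfkbiz (1.13 and 1.25) without replicate 2 or 1 of both factors. In the sterol list 1 of 13 rose, and of 5 heat shock genes 0 were called in edgeR or DESeq2, with 1 at an unadjusted p under 0.05 in edgeR. The shares called in the lists of hypoxia and glycolysis (7.69%), sterol (7.69%) and heat shock genes are near the 7.29% of all genes tested or rest on few genes, and nothing is read from them.

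Nefl, the neurofilament light chain, stood at 679, 726, 670.3 and 696 CPM in untreated wells and at 315, 288, 309 and 317 CPM with both factors. Every treated well was far below every untreated well, with a log2FC of -1.17 ± 0.07 (edgeR adjusted p = 2.00e-21), the smallest adjusted p among the genes called lower. Nefm, the medium chain, was at 62.4, 44.7, 41.4 and 74.4 CPM and then at 21.9, 20.6, 15.1 and 13.5 CPM (log2FC -1.65 ± 0.22). The potassium channels Kcnk3 and Kcnk2 fell by 1.25 and 1.24 on the log2 scale. The kinase Camk1d fell by 1.27, the somatostatin receptor Sstr2 fell by 1.19 and Ndp, a ligand of the Frizzled-4 receptor, fell by 1.12 on the log2 scale. Lrrc32 (GARP), which anchors latent TGF-β on the cell surface, had the lowest log2FC among the genes named, -1.79 ± 0.48, with 9.88 ± 2.23 and 2.77 ± 1.23 CPM (SD, n = 4 per group). It missed the threshold without replicate 1 of untreated cells (-1.66, edgeR adjusted p = 0.0501) or replicate 3 of both factors (-1.51, 0.0570). At its level with both factors Lrrc32 passed the filter on low counts through other wells, so that the filter favored its fall. Msx3, a homeobox gene, had a log2FC of -1.50, and -1.14 with an adjusted p of 0.0519 (edgeR) without replicate 4 of both factors.

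Outside the lists, 5 genes were named for the smallest p. Wars, the tryptophanyl-tRNA synthetase, rose from 77.4 ± 8.25 to 796 ± 67.8 CPM and Ly6a (Sca-1) from 43.0 ± 2.36 to 338 ± 17.6 CPM (SD, n = 4 per group). Tcf7, a transcription factor of the Wnt pathway, rose by a log2FC of 2.24 ± 0.10, the Ifi200 family gene Mndal by 2.97 ± 0.14 and AA467197, listed under that symbol, by 1.76 ± 0.07.

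How the combined response related to each factor was read first from wells that it did not use, those of IFN-γ alone against those of Activin-A alone at 4 hrs. In that comparison 8.47% of all genes tested were called (493 higher with IFN-γ, 5.40%, and 281 higher with Activin-A, 3.08%). Of the 464 genes higher with both factors, 300 (64.7%) were higher with IFN-γ than with Activin-A, 38 (8.19%) were higher with Activin-A and 126 (27.2%) were not called between the factors. The median log2FC of these 3 sets in the combined response was 1.19, 0.71 and 0.56. Of the 202 genes lower with both factors, 11 were higher with IFN-γ, 19 (9.41%) higher with Activin-A and 172 (85.1%) not called. Gbp2, Irf1 and Cd274 were among the 300, and Pmepa1, Ccn2, Ccn1, Thbs1, Inhba and Itgav among the 38. The 300 include genes that passed the filter on low counts only through wells with IFN-γ, such as Cd274, Apol6, Tgtp1, Tgtp2, Il18bp, Il15ra and Zbp1. The direction of such genes between the factors was fixed by that filter, and the shares and medians were not taken without them. Of the lower genes, Socs2 was lower with IFN-γ than with Activin-A (log2FC -0.87), Il33 was higher with IFN-γ than with Activin-A (log2FC 0.47) and Nefl was not called (log2FC 0.18, edgeR adjusted p = 0.0967).

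**Figure D3:**
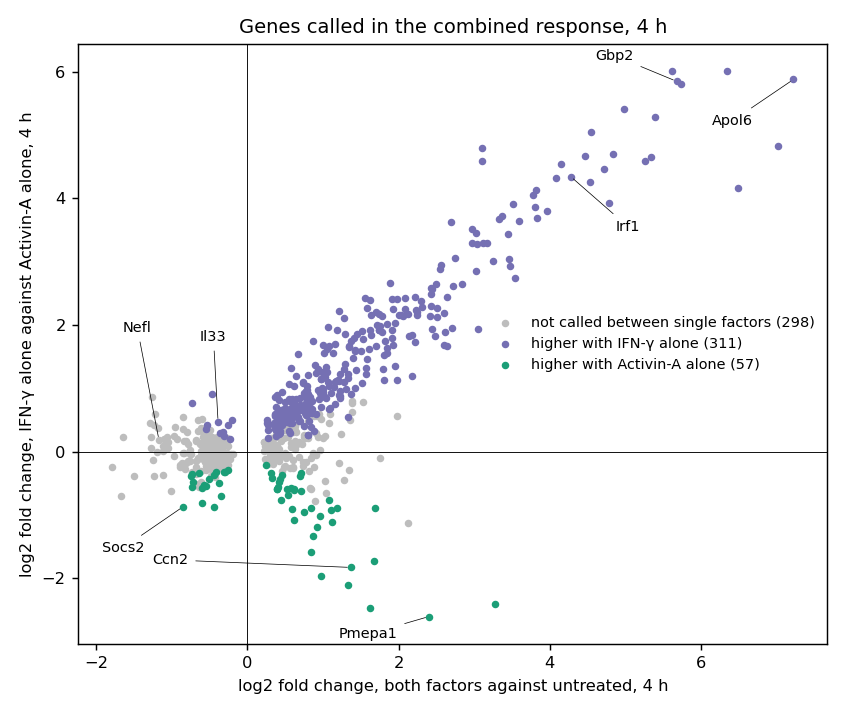
The 666 genes called in the combined response at 4 hrs, by their log2FC with both factors against untreated (x axis) and their log2FC with IFN-γ alone against Activin-A alone (y axis), which use different wells. Of these genes 311 were higher with IFN-γ alone (purple), 57 with Activin-A alone (green) and 298 were not called (grey).

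Against each factor alone the combined wells differed unequally. Compared to Activin-A alone 555 genes differed (6.07% of those tested, 403 higher, 4.41%, and 152 lower, 1.66%), and compared to IFN-γ alone 74 did (0.81%, 51 higher, 0.558%, and 23 lower, 0.252%). These comparisons share the combined wells with each other and with the comparison to untreated cells, so that their lists are not independent. The count against IFN-γ alone also depended on the wells in the fit: it was 134 without replicate 1 of Activin-A alone, 47 without replicate 2 of IFN-γ alone or without replicate 4 of both factors, 49 without replicate 1 of IFN-γ alone and 44 with DESeq2.

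Pmepa1 had means of 55.6, 325, 52.7 and 294 CPM in untreated, Activin-A, IFN-γ and combined wells, and both factors exceeded IFN-γ alone by a log2FC of 2.45 (edgeR adjusted p = 1.07e-24). Thbs1 was at 732, 1576, 845 and 1658 CPM in the same order (log2FC above IFN-γ alone 0.97, edgeR adjusted p = 3.80e-18). Ccn2 was at 77.8, 265, 74.0 and 201 CPM, with a log2FC of 1.43 against IFN-γ alone and -0.40 against Activin-A alone (edgeR adjusted p = 0.00214 for the latter).

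Irf1 had means of 42.0, 38.6, 781 and 814 CPM in untreated, Activin-A, IFN-γ and combined wells, with Cd274 at 5.27, 4.47, 103 and 96.5 CPM and Gbp2 at 59.9, 61.5, 3498 and 3078 CPM in the same order, with log2FC of 0.06, -0.09 and -0.18 against IFN-γ alone (edgeR adjusted p = 0.864, 0.888 and 0.0953). Of the 12 GTPases, 20 MHC class I genes and 38 antiviral genes tested, 0 were called between both factors and IFN-γ alone in edgeR or DESeq2, and 3, 3 and 7 had an unadjusted p under 0.05 in edgeR. Of all genes tested 0.81% were called in this comparison, so that these lists are not set apart by a count of 0. Ccl2 and Ly6a were called and were lower with both factors: Ccl2 had means of 77.9, 59.6, 314 and 239 CPM (log2FC -0.40 against IFN-γ alone, edgeR adjusted p = 0.00110) and Ly6a of 43.0, 42.5, 424 and 338 CPM (-0.33, 0.00676). The call of Ly6a was lost without replicate 2 of IFN-γ alone (log2FC -0.29, edgeR adjusted p = 0.0853), replicate 1 of both factors (log2FC -0.30, edgeR adjusted p = 0.0547) or replicate 2 of both factors (log2FC -0.31, edgeR adjusted p = 0.0514).

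**Figure D4:**
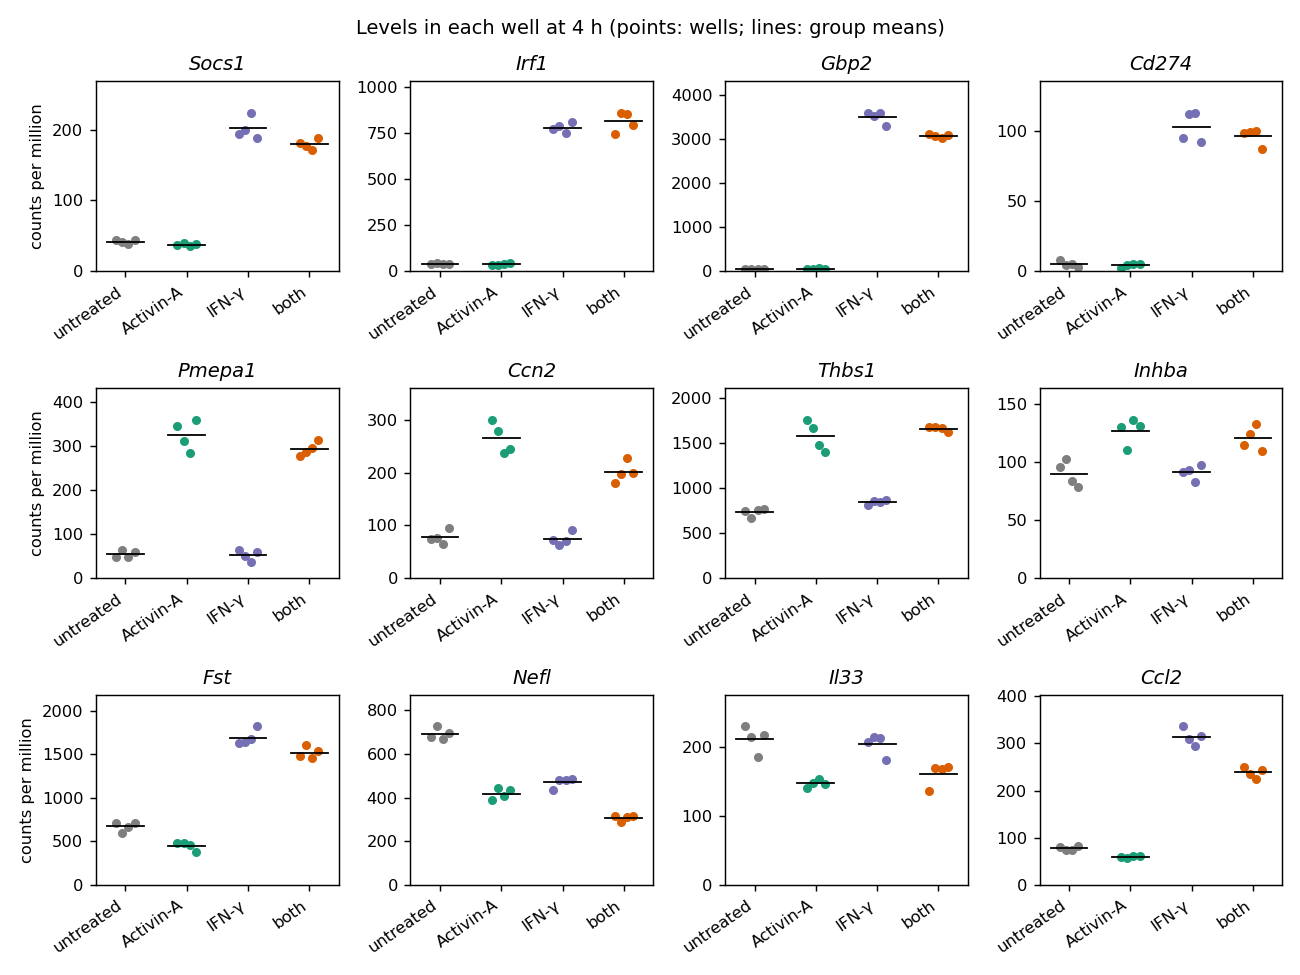
CPM in each of the 4 wells (points) and group means (lines) for untreated cells, Activin-A alone, IFN-γ alone and both factors at 4 hrs, for the 12 genes, with linear axes from 0. Socs1, Irf1, Gbp2 and Cd274 are high in the wells with IFN-γ, Pmepa1, Ccn2 and Thbs1 in those with Activin-A, and Nefl is lowest with both. Inhba was not called between both factors and IFN-γ alone in edgeR (unadjusted p under 0.05) or DESeq2.

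The mean of Nefl was lower with both factors than with either alone. Nefl had means of 693, 419, 471 and 307 CPM in untreated, Activin-A, IFN-γ and combined wells, a log2FC of -0.43 against Activin-A alone and -0.62 against IFN-γ alone (edgeR adjusted p = 4.96e-06 and 1.08e-08).

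Whether the combined response departed from the sum of both single responses on the log2 scale was tested gene by gene as an interaction. In edgeR 0 of 9137 genes were called (0%), 505 had an unadjusted p under 0.05, and DESeq2 called 0 as well. The smallest adjusted p was 0.278, for Fst, whose means were 672, 451, 1693 and 1521 CPM in untreated, Activin-A, IFN-γ and combined wells. Without replicate 1 of Activin-A alone Fst was called (log2FC of the interaction 0.47, adjusted p = 0.00176, edgeR), and so it was with all 32 wells in the fit (0.43, 0.0377) and without the filter on low counts (0.44, 0.0495). In data simulated for this interaction edgeR recovered 65 of 100 changes of 2-fold and 96 of 100 of 4-fold, with 8 false calls. Smaller departures would thus often be missed at this depth. The simulated data held 200 changed genes and no well that stood apart, so that recovery in the real wells may be lower.

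The same contrast at 12 hrs, in other wells, called 883 of 8971 genes (9.84%, 551 higher, 6.14%, and 332 lower, 3.70%). Among the 8857 genes tested at both times, 334 were higher at both, which is 73.9% of the 452 higher at 4 hrs and 62.1% of the 538 higher at 12 hrs. For lower genes the 83 shared were 41.7% of the 199 at 4 hrs and 25.2% of the 329 at 12 hrs. Tgfbi, an extracellular matrix protein, was the 1 gene called in opposite directions (log2FC 0.28 at 4 hrs and -0.55 at 12 hrs). A call at 1 time only does not show a difference, so the difference between the times was tested over all 32 wells: 84 of 9332 genes were called (0.90%), 50 with a larger (0.536%) and 34 with a smaller log2FC (0.364%) at 12 hrs. Of the 651 DEGs of 4 hrs that were tested at both times, 54 were among them.

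**Figure D5:**
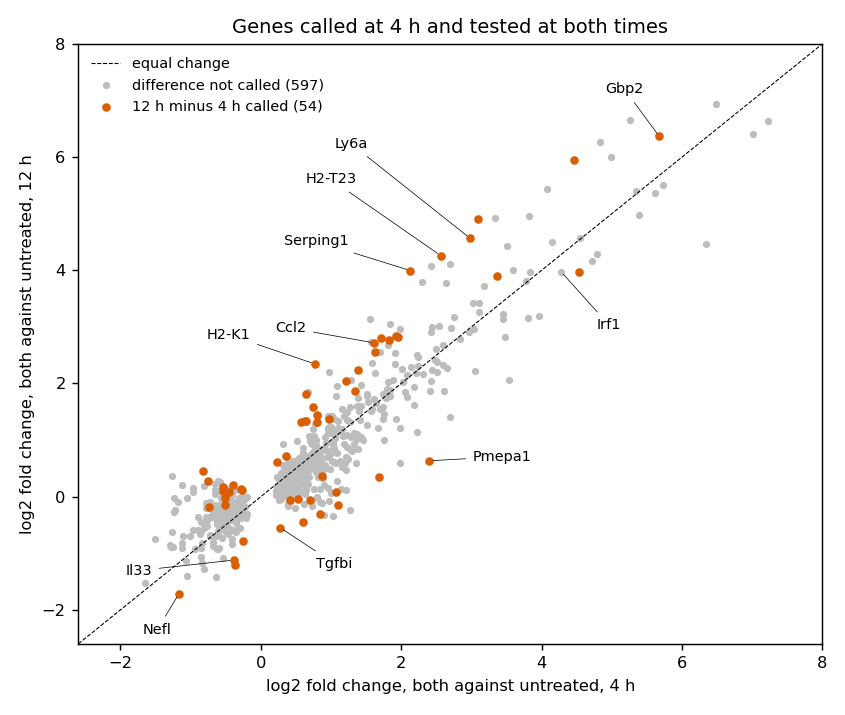
Log2FC of both factors against untreated cells at 4 hrs (x axis) and at 12 hrs (y axis) for the 651 genes called at 4 hrs and tested at both times. In 54 genes (orange) the difference between the times was called, and the dashed line marks equal change.

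In MHC class I genes 9 of 20 tested had a larger log2FC at 12 hrs and 0 a smaller one in edgeR, against 0.536% and 0.364% of all genes tested. H2-T23 went from a log2FC of 2.56 to 4.26. Ly6a went from 2.98 to 4.57, Ccl2 from 1.62 to 2.72, the complement inhibitor Serping1 from 2.13 to 4.00 and Gbp2 from 5.68 to 6.37, and each of these differences was called. Irf1 (4.28 and 3.98) had no called difference. Pmepa1 went the other way, from a log2FC of 2.40 to 0.63 (difference -1.76, edgeR adjusted p = 4.96e-08), whereas Thbs1 (1.18 and 0.92) and Ccn2 (1.37 and 1.60) had no called difference. Il33 went from -0.39 to -1.12 and Nefl from -1.17 to -1.72, and both differences were called. Grem1, lower at 4 hrs, had a log2FC of -0.03 at 12 hrs, and this difference was called.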

How the data were processed

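YUMM3.3 cells were treated in quadruplicate wells and their RNA was profiled by BRB-seq. The deposited values were raw counts of reads per gene, 1 column per well, from the authors' alignment and counting; the submitters' processing notes name STAR 2.7.10b, featureCounts, DESeq2 1.36.0 and GRCm39 (mm39). Whether molecular identifiers were collapsed, the strand setting and the annotation release are not given in the sources used here. The table held 12451 genes in 32 wells, with totals of 654539 to 1455074 counts.

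Genes were filtered with edgeR's filterByExpr and normalized by TMM, and the 16 wells of 4 hrs were fitted with 1 mean per group in edgeR 4.0.16 (R 4.3.3, quasi-likelihood test, Benjamini-Hochberg adjusted p under 0.05). Standard errors were approximated from the test statistic. The study's own test, DESeq2, was run as an alternative (1.42.0), as were other filters, normalizations, samples and thresholds, a replicate block and leaving out each well. CPM are counts scaled to a TMM-adjusted well total of 1000000, are not corrected for transcript length, and were not compared between genes. On data simulated for the combined response at 4 hrs over 9021 genes, edgeR recovered 82 of 100 changes of 2-fold and 99 of 100 of 4-fold, with 2 false calls.

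Genes were named by a rule: the 15 highest and 15 lowest called log2 fold changes with a mean of at least 10 counts in the higher group and no overlap of wells, up to 4 called members of each of 30 lists, a set of pathway genes whatever their result, the 5 highest and 5 lowest called genes of the difference between times, and 5 genes of smallest p outside the lists. Other genes were named after their values were seen, to account for list members or a count of 5 or fewer. The contrast, the lists and the rule were chosen with earlier results of these data known. Promoter windows were RefSeq's, on GRCm38.p6, and 7333 of 9137 tested genes were matched by symbol. No replicate number links wells between groups: the correlation of same-numbered wells' deviations was 0.00 on average over the groups of 4 hrs (-0.09 to 0.04). Some genes are not reported here.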

Additional observations from a re-analysis of the deposited data

Results flagged for a closer look

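Of 263 checks for a well far from the other 3 of its group, 16 were positive, and chance alone gives about 1 in 20. In untreated cells at 4 hrs the wells that stood apart were at 0.879 CPM for Apol6, 0.951 CPM for Tgtp1, 1.90 CPM for Tgtp2, 0.951 CPM for Gm4951, 12.9 CPM for Amot, 44.9 CPM for Socs3, 17.1 CPM for Mafk, 174.6 CPM for Cdkn1a, 291.8 CPM for Mcm6 and 16.7 CPM for Tenm4. The first 4 of these rest on 1 or 2 counts. With both factors they were at 87.2 CPM for Cd274, 64.3 CPM for Col6a2, 84.1 CPM for Spry2, 195.8 CPM for Cdk6, 136.5 CPM for Il33 and 742.1 CPM for AA467197.

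The log2 fold change of both factors against untreated cells differed between 12 hrs and 4 hrs (edgeR, adjusted p under 0.05) for the 19 genes flagged here. Genes that were not flagged differed too, among them Tgfbi and other members of the MHC class I list. The difference, 12 hrs minus 4 hrs, was 2.91 for Ccl7, a monocyte chemokine too low to test at 4 hrs alone, 1.88 for Serping1, 1.82 for Ly6c1, 1.71 for H2-T23, 1.61 for Ly6a, 1.11 for Ccl2, 0.70 for Gbp2, 0.65 for Spry2, 0.54 for Wars, 0.52 for Fstl1 and 0.48 for Grem1. It was -2.62 for Zfp469, -2.28 for Tenm4, -1.76 for Pmepa1, -1.61 for Bmp4, -1.56 for Akap12, -0.84 for Col6a1, -0.72 for Il33 and -0.54 for Nefl. Leaving out 1 of the 16 wells ended some of these calls. That of Wars was lost without replicate 2 or 4 of untreated cells at 4 hrs or replicate 2 of untreated cells at 12 hrs (0.48 to 0.52), and that of Tenm4 without replicate 1 or 4 of both factors at 12 hrs (-1.99 and -2.11). The calls of Ly6c1, Zfp469, Bmp4, Akap12 and Spry2 were each lost without any 1 of 7 or more wells, with differences of 1.41 to 1.85 for Ly6c1, -2.63 to -2.41 for Zfp469, -1.74 to -1.38 for Bmp4, -1.60 to -1.26 for Akap12 and 0.58 to 0.67 for Spry2. Under DESeq2 the call of Spry2 was lost (0.65, adjusted p = 0.0935), and no adjusted p was given for Ccl7, Zfp469, Tenm4, Bmp4 and Akap12, so that their calls rest on edgeR.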

How the results depend on the processing

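The 666 calls of the combined response at 4 hrs numbered 494 under DESeq2, 669 with RLE normalization, 701 with no filter on low counts, 643 with a mean of at least 10 counts, 712 with all 32 wells, 737 with only the 8 wells compared and 574 to 606 without 1 well of these groups. At an absolute log2 fold change of at least 1 there were 226 of them (203 higher and 23 lower), 15 of the 74 against IFN-γ alone, 196 of the 555 against Activin-A alone, 245 of the 774 between the single factors, 247 of the 883 at 12 hrs and 25 of the 84 between times. At an adjusted p under 0.01 the count against IFN-γ alone was 40 and between times 45. DESeq2 called 44 genes against IFN-γ alone and 581 at 12 hrs. Against IFN-γ alone the count was 120 with only the 8 wells compared, 134 without replicate 1 of Activin-A alone and 47 to 72 without 1 well of its own groups. The interaction had 1 call with no filter, with all 32 wells and without replicate 1 of Activin-A alone, and 0 to 1 when any 1 well was left out. Without 1 well the counts were 462 to 537 against Activin-A alone, 676 to 774 between the single factors, 757 to 787 at 12 hrs and 56 to 77 between times. Without 1 well the sign changed for genes that were not called, and the cause was not tested: the log2 fold change ranged from -0.10 to 0.034 for Jak1, -0.27 to 0.0049 for Acvr1b, -0.016 to 0.15 for Smad2, -0.13 to 0.43 for Tenm4 and -0.24 to 0.10 for Bmp4. With a replicate block, which the design gives no ground for, 652 genes were called in the combined response. Below 10 CPM the smallest called change was 1.23 on the log2 scale.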
